A study of Mus musculus with 2 samples.

Results

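Ciliated-like medullary thymic epithelial cells (mTECs) were defined as kept cells with a UMI (unique molecular identifier, the count of 1 captured transcript) in at least 3 of the 6 genes Foxj1, Trp73, Ccdc153, Tmem212, Dynlrb2 and Rsph1 and with fewer than 3 UMIs of Aire. Kept cells are barcodes with 500 or more genes and 1000 or more UMIs, of which mitochondrial transcripts made up no more than 10%. The rule found 70 cells among 7621 kept cells, 39 of 3584 in the library labelled KO and 31 of 4037 in the library labelled WT. Both libraries hold live thymic cells of mice sorted for EPCAM, the surface protein of epithelial cells. One is labelled Foxp1 KO and Cre+, the other Foxp1 WT and Cre-, and the genotype tag reads KO on both, so the title and the library name set the groups. Foxp1 encodes a forkhead transcription factor, and Cre is the recombinase that would delete it. The Cre driver, the part of Foxp1 between the recombination sites, and the age, sex and number of the mice do not appear in the sources used here. With 1 library per group no difference between the groups could be tested, and the intervals given are exact 95% intervals for counting error only. KO label and WT label stand below for the libraries so labelled.

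Multiciliated cells, such as those of the airway, oviduct and brain ventricles, carry bundles of motile cilia. Their differentiation begins with the coactivators Gmnc and Mcidas, proceeds through the building of many centrioles on structures called deuterosomes, which contain Deup1, and ends with the genes of the motile axoneme, driven by Foxj1 and the Rfx factors. In the thymic medulla, mimetic epithelial cells take on programs of peripheral tissues and thereby show their proteins to developing T cells, and a ciliated type is one of them.

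The X-box, the DNA sequence bound by Rfx factors, was looked for in the promoters of these genes because it is the sequence element best known from ciliary genes. The windows ran from 250 bases before to 50 bases after the RefSeq start on build GRCm38.p6 and were read on both strands. The searched letters were the core GTTGCC and full sites, in which the core is followed, after 4 or 5 bases of any kind, by AAC. Among the 4 marker genes with an entry, Ccdc153 had a full site at position -152 and Dynlrb2 one at position -51 relative to the start, while Tmem212 and Trp73 had none. Ccdc153 encodes a coiled-coil protein and Tmem212 a membrane protein, and Dynlrb2 encodes a light chain of the dynein motors. The windows of Ccdc153, Dynlrb2 and, for contrast, Tmem212 are given 5′ to 3′ with the full sites in capitals.
Ccdc153 (chr9:44240427-44240726, plus strand): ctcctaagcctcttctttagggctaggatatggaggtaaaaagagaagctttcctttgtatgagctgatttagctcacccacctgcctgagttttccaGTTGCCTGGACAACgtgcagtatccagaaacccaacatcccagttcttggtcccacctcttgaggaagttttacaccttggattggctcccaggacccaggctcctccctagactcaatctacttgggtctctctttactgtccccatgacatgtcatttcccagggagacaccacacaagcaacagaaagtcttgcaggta
Dynlrb2 (chr8:116504765-116505064, plus strand): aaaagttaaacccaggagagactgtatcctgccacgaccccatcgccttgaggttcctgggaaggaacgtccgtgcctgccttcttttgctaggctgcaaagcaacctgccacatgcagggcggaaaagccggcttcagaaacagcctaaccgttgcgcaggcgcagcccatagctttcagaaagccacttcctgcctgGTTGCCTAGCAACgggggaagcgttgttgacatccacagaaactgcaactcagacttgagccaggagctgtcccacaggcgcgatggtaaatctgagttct
Tmem212 (chr3:27896319-27896618, minus strand): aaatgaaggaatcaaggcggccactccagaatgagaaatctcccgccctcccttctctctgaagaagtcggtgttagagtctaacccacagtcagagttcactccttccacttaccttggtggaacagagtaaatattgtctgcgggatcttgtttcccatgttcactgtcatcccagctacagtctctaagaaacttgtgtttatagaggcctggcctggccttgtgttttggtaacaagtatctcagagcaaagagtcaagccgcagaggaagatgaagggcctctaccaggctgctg

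Short stretches around the site in 8 further ciliary genes are given to show how it varies, with the site, or its match on the opposite strand, in capitals. Hydin and Spag16 encode proteins of the central pair of microtubules, Iqca a protein of the nexin-dynein link and Tekt2 a filament inside the tubules. Ccdc103 serves the assembly of dynein arms. Fam183b, 1110017D15Rik and Lrrc23 belong to the list of other ciliated cell genes.
Hydin (chr8:110266933-110266992, plus strand): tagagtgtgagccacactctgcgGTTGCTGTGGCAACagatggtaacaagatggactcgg
Spag16 (chr1:69826844-69826903, plus strand): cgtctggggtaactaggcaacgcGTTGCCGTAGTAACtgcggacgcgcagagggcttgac
Iqca (chr1:90153500-90153559, minus strand): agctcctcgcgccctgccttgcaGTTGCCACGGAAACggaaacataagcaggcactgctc
Tekt2 (chr4:126325681-126325740, minus strand): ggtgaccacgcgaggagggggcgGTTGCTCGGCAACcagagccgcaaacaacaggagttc
Ccdc103 (chr11:102881198-102881257, plus strand): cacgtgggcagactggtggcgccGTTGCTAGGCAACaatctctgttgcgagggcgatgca
Fam183b (chr11:58801940-58801999, minus strand): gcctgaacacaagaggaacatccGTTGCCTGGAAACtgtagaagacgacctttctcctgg
1110017D15Rik (chr4:41507746-41507805, minus strand): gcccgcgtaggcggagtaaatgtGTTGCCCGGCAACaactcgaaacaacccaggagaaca
Lrrc23 (chr6:124779730-124779789, minus strand): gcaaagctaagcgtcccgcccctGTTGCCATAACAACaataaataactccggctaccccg

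Of 174 ciliary genes asked for, 139 had an entry, and a full site lay in 21 of them (15.1%), against 324 of 27025 genes in the whole table (1.20%). The core lay in 63 of the 139 (45.3%) and in 3821 of the 27025 (14.1%). The forkhead sequence TGTTTAC lay in 5.04% of the ciliary promoters and in 4.05% of all promoters. The letters of the full sites were chosen after the sequences had been seen, and a match is a description of the letters and not of binding.

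Foxp1, the gene the labels name as deleted, was counted in both libraries and was higher in the library labelled KO. The ciliated-like cells held 722 CPM (UMIs of a gene scaled to 1000000 UMIs summed over the cells) of Foxp1 in the library labelled KO and 517 CPM in the library labelled WT, with a UMI in 33 of 39 and 25 of 31 cells. Single ciliated-like cells held 0 to 21 Foxp1 UMIs (median 7) in the library labelled KO and 0 to 15 (median 5) in the library labelled WT, so the cells overlapped. The log2 ratio was 0.48 (95% interval 0.22 to 0.75), and in the other kept cells it was 0.63, from 391 (KO label) and 252 CPM (WT label). The ratio was 0.91 when 2 rule genes were enough for membership and 0.76 when each cell had equal weight. Thinned to 2000 UMIs per cell, Foxp1 was found in 28 of 38 (73.7%, KO label) and 11 of 31 (35.5%, WT label) ciliated-like cells, and in 45.1% (KO label) and 36.0% (WT label) of the other kept cells. Whole-gene counts go against the label here, and a deletion of exons that still lets the rest of the transcript be counted would not be seen in them. Foxp1 also overlaps other annotated genes on its own strand, so its UMIs may not all be its own. Every direction between the groups below therefore rests on the labels alone.

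The ciliated-like cells were rare in both libraries. They made up 1.09% (Clopper-Pearson interval 0.775 to 1.48) of kept cells in the library labelled KO and 0.768% (0.522 to 1.09) in the library labelled WT. The log2 ratio was 0.50 with an interval of -0.21 to 1.23 that includes 0. With every cell thinned to 2000 UMIs, the shares were 23 of 3033 (0.758%, KO label) and 18 of 3596 (0.501%, WT label). These intervals count cells of 1 library each and leave out the spread between animals. The cells were sequenced well: their median UMI counts were 9246 (KO label) and 10746 (WT label), against 5097.5 (KO label) and 6267 (WT label) over all kept cells, and their median mitochondrial shares were 1.98% (KO label) and 1.77% (WT label). No member shared its barcode with a barcode of the other library, although 5 barcodes occurred in both. Epcam, the gene of the sorted surface protein, had a UMI in 33 of 39 (KO label) and 29 of 31 (WT label) of these cells.

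The 6 rule genes chose the cells, so their levels are a description. Foxj1, the forkhead factor of motile cilia, had a UMI in 34 of 39 cells in the library labelled KO and 30 of 31 in the library labelled WT, with 0 to 29 (median 3) and 0 to 23 (median 4) UMIs per cell. It was also seen in 8.43% (KO label) and 11.7% (WT label) of the other kept cells and in 11.2% (KO label) and 14.9% (WT label) of cells with 3 or more endothelial genes. Those endothelial-gene cells had median depths of 5285 (KO label) and 9219 (WT label) UMIs. The endothelial-gene cells also carried Fezf2, a gene of mTECs, in shares like those of the other kept cells, so they are not a clean background without epithelial RNA. Tmem212, with a UMI in 29 (KO label) and 25 (WT label) ciliated-like cells, was seen in 0.536% (KO label) and 0.524% (WT label) of the other kept cells, and in 0 of 267 (KO label, which allows up to 1.12%) and 2 of 121 (1.65%, WT label) endothelial-gene cells. Rsph1, a radial spoke protein, was found in 33 (KO label) and 27 (WT label) ciliated-like cells, Dynlrb2 in 33 (KO label) and 24 (WT label), and Ccdc153 in 32 (KO label) and 20 (WT label). Trp73, the p53 relative needed for multiciliated cells, was the sparsest marker with 11 (KO label) and 6 (WT label) cells, and 52.1% of its UMIs in the library labelled KO came from 1 cell. Its log2 ratio between the libraries, KO label over WT label, was 1.92, and 1.36 (0.09 to 2.82) without the top cell of each.

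The number of rule genes separated cells by axonemal genes that the rule did not use. At 2000 UMIs per cell, ciliated-like cells held a UMI in a median of 17 (0 to 26, 38 cells) of 80 axonemal genes in the library labelled KO and 15 (0 to 35, 31 cells) in the library labelled WT, against 1 in the other kept cells of each. Without thinning the medians were 39 (11 to 65, KO label) and 41 (7 to 67, WT label), against 3 in the others. Just inside the threshold, the 9 (KO label) and 10 (WT label) cells with 3 rule genes had unthinned medians of 29 (KO label) and 16 (WT label). Just outside it, the 31 (KO label) and 35 (WT label) cells with 2 rule genes had a median of 9 in both libraries, and some of them, up to 43 axonemal genes in the library labelled KO, lay within the range of the members. At 2000 UMIs, 37 of 38 (KO label) and 30 of 31 (WT label) chosen cells had 3 or more axonemal genes, against 555 of 2995 (KO label) and 679 of 3565 (WT label) other kept cells. Of the chosen cells, 2 of 38 (KO label) and 7 of 31 (WT label) had no more axonemal genes than the highest cell without a rule gene in their library, which held 6 (KO label) and 7 (WT label). At 2000 UMIs these cells were not set apart by axonemal genes.

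**Figure D1:**
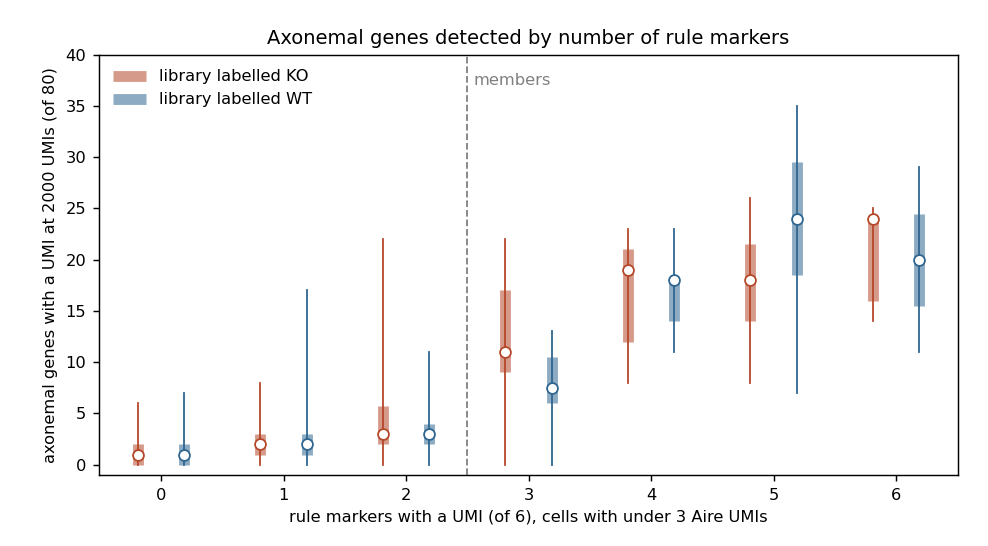
Axonemal genes with a UMI per cell after thinning to 2000 UMIs (vertical axis, of 80 genes) by the number of rule genes with a UMI (horizontal axis) in cells with fewer than 3 Aire UMIs; circles are medians, thick bars the quartiles, thin lines the full range. Medians stay at 1 to 3 with 0 to 2 rule genes and lie at 7.5 or above with 3 or more, with the library labelled KO left of the library labelled WT.

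The genes of the motile axoneme were higher in the ciliated-like cells as whole modules. Of 74 measured axonemal genes in 6 lists, 63 were at least 4-fold higher than in the other kept cells in both libraries, and the median log2 ratios were 4.03 in the library labelled KO and 4.34 in the library labelled WT. Over all 19159 measured genes, 635 (3.31%) met that fold in both libraries, 5.23% met it in the library labelled KO and 5.85% in the library labelled WT, and the medians were -0.14 and -0.20. The cells were chosen by genes of the same program, so these counts describe the cells and test nothing. Summed, the axonemal genes made up 10960 (KO label) and 12598 CPM (WT label) in the ciliated-like cells and 1108 (KO label) and 1050 CPM (WT label) in the other kept cells.

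Dynein arms, the motors that bend the axoneme, were present with their heavy chains, docking factors and assembly factors. All 9 measured inner arm genes and 9 of 11 outer arm and docking genes passed the 4-fold mark in both libraries. The outer arm heavy chain Dnah5 had 359 CPM in ciliated-like cells of the library labelled KO, against 34.6 CPM in its other cells, and 445 CPM against 25.4 CPM in the library labelled WT. The inner arm heavy chain Dnah6 had 321 against 8.34 CPM (KO label) and 351 against 7.39 CPM (WT label). The docking factor Armc4 had 103 against 2.25 CPM (KO label) and 140 against 2.49 CPM (WT label). Zmynd10, which helps to assemble the arms in the cytoplasm, had 87.5 against 1.25 CPM (KO label) and 91.3 against 1.42 CPM (WT label). Nme8, a dynein-associated protein, was at 0 UMIs in the ciliated-like cells of both libraries, which allows up to 6.73 (KO label) and 8.56 CPM (WT label), and it was at 0.667 (KO label) and 0.568 CPM (WT label) in the others.

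Radial spokes and the central pair, which regulate the beat, had 17 of 18 genes past 4-fold, with log2 medians of 4.45 (KO label) and 5.29 (WT label). Spag16, a central pair protein, had a UMI in 34 of 39 (KO label) and 21 of 31 (WT label) ciliated-like cells and levels of 473 (KO label) and 499 CPM (WT label), against 10.5 (KO label) and 8.24 CPM (WT label) in the others. Hydin, another central pair protein, had 153 (KO label) and 211 CPM (WT label) against 13.3 (KO label) and 7.10 CPM (WT label). Of the nexin-dynein regulatory complex, the link that limits sliding between tubules, 7 of 9 genes passed 4-fold, and its ruler protein Ccdc39 had 157 (KO label) and 194 CPM (WT label) against 3.29 (KO label) and 2.15 CPM (WT label). Of the proteins inside the tubules and the tubulins, 14 of 17 did. Tekt1, a tektin filament protein, had 126 (KO label) and 143 CPM (WT label) against 2.42 (KO label) and 1.89 CPM (WT label). Below 4-fold in the last list were genes that the other cells also used, such as the tubulin Tuba1a with 666 (KO label) and 856 CPM (WT label) against 244 (KO label) and 231 CPM (WT label).

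Genes shared with the primary cilium, which most cell types can make, were higher by less. Of 25 intraflagellar transport genes, which code for the trains that carry cargo along cilia, 24 were above the other cells in both libraries but 11 passed 4-fold, with a median log2 ratio of 2.12 in each library. The kinesin subunit Kif3a had 71.8 (KO label) and 103 CPM (WT label) against 26.5 (KO label) and 26.0 CPM (WT label), while Ift43, a train component, had 238 (KO label) and 245 CPM (WT label) against 39.4 (KO label) and 34.1 CPM (WT label). All 8 BBSome genes, of a membrane cargo adaptor, were higher in both libraries, but only 1 of them, Bbs1, passed 4-fold. Over all measured genes, 28.0% were above 0 in both libraries.

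**Figure D2:**
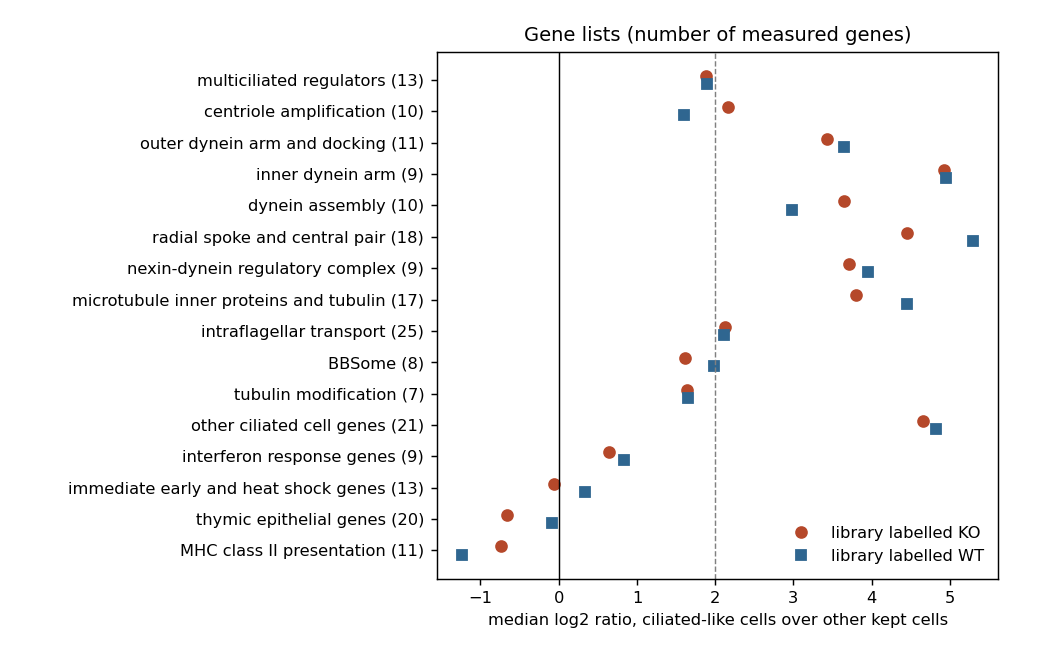
Median log2 ratio of ciliated-like cells over the other kept cells (horizontal axis) for 16 gene lists, circles for the library labelled KO and squares for the library labelled WT; the dashed line marks 4-fold. Axonemal lists lie between 2.99 and 5.29, the intraflagellar transport list lies at 2.12 in both libraries, and MHC class II lies at -0.74 (KO label) and -1.23 (WT label).

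Of the 25 genes outside the rule whose ratio to the other cells was most clearly raised, 9 stood in the ciliary lists and 15 in none of the lists. Sntn, a protein of the ciliary tip, led with 195 CPM in ciliated-like cells against 0.667 CPM in the others of the library labelled KO, and 166 against 0.126 CPM in the library labelled WT. It was not found in every cell: 19 of 39 (KO label) and 12 of 31 (WT label) had a UMI. Of the cadherin-related proteins, Cdhr3 had a UMI in 29 (KO label) and 21 (WT label) cells and Cdhr4 in 22 (KO label) and 17 (WT label) cells. The rest of the ranking held Spata18, Meig1, Dnah3, Dnali1, Cfap206, Iqub, Ccdc78, Crocc2, Zbbx, Fam216b, Fam47e, Tmem232, Zfp474, AU040972, and the less characterised Gm19935, Gm867, 4833427G06Rik, 2410004P03Rik, 1700024G13Rik, 1700001C02Rik, 2610028H24Rik and C230072F16Rik. Among these less characterised loci, Gm19935 had 278 (KO label) and 342 CPM (WT label) against 1.46 (KO label) and 0.474 CPM (WT label). Spata18, a mitochondrial quality protein on the list of spermatid genes, had 130 (KO label) and 91.3 CPM (WT label) against 0.584 (KO label) and 0.568 CPM (WT label). Of the 10 genes on that list, 6 had 0 UMIs in the ciliated-like cells of both libraries. Among these were the protamine Prm1 and the tail proteins Odf1 and Akap4. Such a count of 0 allows up to 6.73 (KO label) and 8.56 CPM (WT label). Of the 10 genes, only 6, Spata18 among them, had enough UMIs for a ratio to the other cells. An absence of the genes at 0 UMIs, or a difference from the other cells, therefore cannot be told from these counts.

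Cells with genes of other mimetic types differed by list in how much of these genes they held. The inner arm genes summed to 1541 (KO label) and 1561 CPM (WT label) in ciliated-like cells, against 31.7 (KO label) and 46.2 CPM (WT label) in cells with 3 or more tuft genes and 88.8 (KO label) and 53.3 CPM (WT label) in cells with 3 or more neuroendocrine genes. The list of other ciliated cell genes summed to 3749 (KO label) and 4067 CPM (WT label) in the ciliated-like cells, against 467 (KO label) and 367 CPM (WT label) in the neuroendocrine-gene cells. Outer arm and docking genes summed to 1710 (KO label) and 1912 CPM (WT label) in the ciliated-like cells, against 342 (KO label) and 236 CPM (WT label) in tuft-gene cells, which lay above the 157 (KO label) and 152 CPM (WT label) of all other kept cells. The multiciliated regulators summed to 1398 (KO label) and 1401 CPM (WT label) in the ciliated-like cells, against 622 (KO label) and 679 CPM (WT label) in neuroendocrine-gene cells. Intraflagellar transport genes summed to 2621 (KO label) and 2634 CPM (WT label), against 780 (KO label) and 713 CPM (WT label) in neuroendocrine-gene cells. Some members carried 3 or more genes of another list. For airway secretory genes these were 28.2% (KO label) and 25.8% (WT label) of members, against 7.84% (KO label) and 10.5% (WT label) of other kept cells, and for neuroendocrine genes 12.8% (KO label) and 12.9% (WT label), against 5.25% (KO label) and 5.62% (WT label). None of these shares was matched for depth, and members were deeper than the other kept cells. Of the 12 airway secretory genes, 3 were higher and 8 lower than in the others in both libraries. Over all measured genes, 28.0% were higher and 40.2% lower. The airway list had median log2 ratios of -0.61 (KO label) and -1.77 (WT label). Its sums were 4559 against 1732 CPM (KO label) and 1698 against 1427 CPM (WT label). For tuft genes, with 12.8% (KO label) and 16.1% (WT label) of members against 9.93% (KO label) and 17.1% (WT label) of others, and for gut and liver genes, with 17.9% (KO label) and 22.6% (WT label) against 11.8% (KO label) and 16.7% (WT label), the shares lay near those of the others. Keratinocyte genes reached that number in 5 (12.8%, KO label) and 1 (3.23%, WT label) members. Of the others, 3.55% (KO label) and 5.24% (WT label) did. No member had 3 or more fibroblast, thymocyte or myeloid genes. Of the others, 1.07% (KO label) and 0.624% (WT label) had 3 or more fibroblast genes. For thymocyte genes these were 0.677% and 0.824%, and for myeloid genes 1.78% and 2.05%. With 39 and 31 members, counts of 0 do not set the members apart from such low shares. Endothelial genes reached 3 in 4 (10.3%, KO label) and 0 (WT label) members, against 7.53% (KO label) and 3.02% (WT label) of the others. The summed endothelial level of the members was 200 CPM in the library labelled KO and 59.9 CPM in the library labelled WT. Its part in the comparisons between the libraries was not tested.

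The ciliated-like cells carried the keratin Krt8, and their summed MHC class II genes, which present antigens, were lower than in the other kept cells. Krt8, a keratin of simple epithelia, had 2006 (KO label) and 1832 CPM (WT label), against 1081 (KO label) and 1184 CPM (WT label) in the other kept cells. The basal keratin Krt14 had 56.1 against 339 CPM (KO label) and 285 against 276 CPM (WT label). Of 20 thymic epithelial genes, 5 were higher and 10 lower than in the others in both libraries. Among all measured genes, 28.0% were higher and 40.2% lower in both. Of 11 MHC class II genes, 9 were lower than in the others in both libraries and 0 were higher in both, where 40.2% of all measured genes were lower and 14.0% at least 4-fold lower in both. Per cell the gap was smaller, with medians of 8227 (KO label) and 8282 CPM (WT label) in ciliated-like cells, against 9109 (KO label) and 10933 CPM (WT label) in the others. Cd74, the invariant chain, had 5255 CPM in ciliated-like cells against 8183 CPM in the others of the library labelled KO, and 3896 against 8896 CPM in the library labelled WT. The interferon response genes went the other way, with 7 of 9 above the others in both libraries, where 28.0% of all measured genes were. Bst2, an antiviral membrane tether, had 859 (KO label) and 622 CPM (WT label) against 235 (KO label) and 161 CPM (WT label). The chaperone Hsp90aa1 had 2006 (KO label) and 2129 CPM (WT label) against 496 (KO label) and 609 CPM (WT label). Its list of 13 immediate early and heat shock genes was mixed, with 5 higher and 4 lower than in the others in both libraries. Fezf2, a regulator of tissue antigens in mTECs, had 128 (KO label) and 88.5 CPM (WT label), below the 243 (KO label) and 327 CPM (WT label) of the others. A Fezf2 UMI was seen in 19 of 39 (48.7%, KO label) and 12 of 31 (38.7%, WT label) ciliated-like cells and in 40.1% (KO label) and 50.4% (WT label) of the endothelial-gene cells, and both member shares have intervals that include that level (32.4% to 65.2%, KO label, and 21.9% to 57.8%, WT label). Aire, the other regulator of that kind, was kept low by the rule.

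Within the ciliated-like cells, the regulator Mcidas and some ciliary genes, such as Tmem212 and Sntn, lay mostly in different cells. Mcidas had a UMI in 8 of 39 cells in the library labelled KO and 4 of 31 in the library labelled WT, or 20.5% (9.30 to 36.5) and 12.9% (3.63 to 29.8). It was seen in 0.536% (KO label) and 0.624% (WT label) of the other kept cells, and in 0 of 267 (KO label, which allows up to 1.12%) and 6 of 121 (4.96%, WT label) endothelial-gene cells, a level within the interval of the share in the library labelled WT. All 12 Mcidas cells also carried Deup1, the deuterosome protein, against 4 of 31 (KO label) and 5 of 27 (WT label) cells without Mcidas. The split by Mcidas was chosen after the values were seen and is not tested. The cells with and without Mcidas had median UMI counts of 13905 and 9172 in the library labelled KO and 9112 and 10746 in the library labelled WT, so neither side was deeper in both. In the library labelled WT, 2 of the 4 Mcidas cells held 13716 and 20890 of the 42411 UMIs of that side. The summed levels given below for the Mcidas cells of that library therefore rest mostly on these 2 cells.

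**Figure D3:**
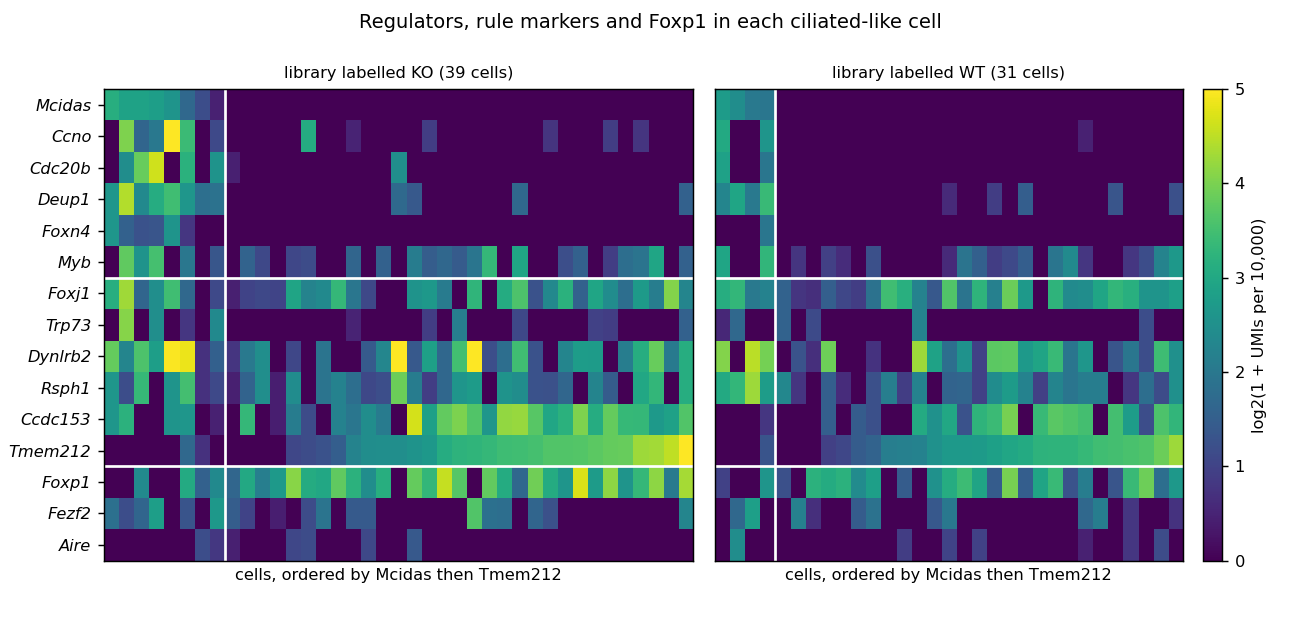
Level of 15 genes (rows) in each of the 39 and 31 ciliated-like cells (columns, library labelled KO left), as log2 of 1 plus UMIs per 10000, with cells ordered by Mcidas and then Tmem212 and a white line after the Mcidas cells. The 8 (KO label) and 4 (WT label) Mcidas cells carry Deup1 and mostly lack Tmem212, while Foxj1 runs across both sides.

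Genes that build centrioles were higher in the Mcidas cells. Deup1 had 665 CPM in them against 14.4 CPM in the cells without Mcidas in the library labelled KO, and 589 against 19.5 CPM in the library labelled WT. Ccno, a cyclin-like protein of centriole amplification, had 553 CPM in Mcidas cells against 31.6 CPM without Mcidas (KO label). In the library labelled WT it had 519 CPM in Mcidas cells against 3.25 CPM without Mcidas. All 22 Ccno UMIs of those Mcidas cells came from 2 cells. Cdc20b, a further deuterosome gene, was found in 5 of 8 Mcidas cells and 2 of 31 cells without Mcidas (KO label), and in 2 of 4 Mcidas cells and 0 of 27 without Mcidas (WT label). Among the general centriole genes, Plk4, the kinase that starts duplication, had 256 CPM in Mcidas cells against 25.9 CPM without Mcidas (KO label) and 212 CPM in Mcidas cells against 22.7 CPM without Mcidas (WT label), and Cep152, its anchor, 194 CPM in Mcidas cells against 5.75 CPM without Mcidas (KO label) and 472 CPM in Mcidas cells against 35.7 CPM without Mcidas (WT label). The summed centriole list stood at 2251 CPM in Mcidas cells against 491 CPM without Mcidas (KO label) and 2853 CPM in Mcidas cells against 422 CPM without Mcidas (WT label). Of the 6 measured centriole genes, 5 were above the cells without Mcidas in both libraries, where 23.7% of all 3819 measured genes were and 0.759% were at least 4-fold higher in both. Gmnc, which acts before Mcidas, had 0 UMIs in the ciliated-like cells of both libraries, which allows up to 6.73 (KO label) and 8.56 CPM (WT label). In the Mcidas cells alone it allows up to 30.7 (KO label) and 70.7 CPM (WT label), so an absence of Gmnc cannot be told. Foxn4, a forkhead factor that acts early in multiciliated cells of the frog, was found in 6 (KO label) and 1 (WT label) Mcidas cells and in 0 cells without Mcidas.

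Some cell cycle genes were higher in the same cells. Top2a, a topoisomerase, had 184 CPM in Mcidas cells against 34.5 CPM without Mcidas (KO label) and 330 CPM in Mcidas cells against 29.2 CPM without Mcidas (WT label), and the kinase Cdk1 had 153 CPM in Mcidas cells against 14.4 CPM without Mcidas (KO label) and 141 CPM in Mcidas cells against 22.7 CPM without Mcidas (WT label). For the DNA synthesis gene Tyms the depth was too low to tell. It had 0 UMIs in the Mcidas cells of both libraries, which allows more than its level in the cells without Mcidas. Pclaf, another such gene, had 1 UMI (10.2 CPM) in Mcidas cells against 77.6 CPM, from 3 cells, without Mcidas (KO label). That log2 ratio was -2.92 (-8.28 to -0.32). In the library labelled WT, Pclaf had 0 UMIs in Mcidas cells, which allows up to 70.7 CPM, against 32.5 CPM, from 2 cells, without Mcidas. Mki67, the proliferation marker, had a UMI in 2 of 8 (KO label) and 1 of 4 (WT label) Mcidas cells.

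Axonemal genes differed in which side of this split they marked. Some were higher in the Mcidas cells, such as Zmynd10 at 246 CPM in Mcidas cells against 43.1 CPM without Mcidas (KO label) and 401 CPM in Mcidas cells against 48.7 CPM without Mcidas (WT label), Ccdc39 at 379 CPM in Mcidas cells against 94.8 CPM without Mcidas (KO label) and 707 CPM in Mcidas cells against 123 CPM without Mcidas (WT label), and Lrrc23, a radial spoke protein, at 952 CPM in Mcidas cells against 224 CPM without Mcidas (KO label) and 1603 CPM in Mcidas cells against 208 CPM without Mcidas (WT label). Others were nearly level, such as Hydin at 153 CPM in Mcidas cells against 152 CPM without Mcidas (KO label) and 189 CPM in Mcidas cells against 214 CPM without Mcidas (WT label). The outer arm heavy chains were lower, Dnah5 at 102 CPM in Mcidas cells against 431 CPM without Mcidas (KO label) and 23.6 CPM in Mcidas cells against 503 CPM without Mcidas (WT label), and Dnah9 at 184 CPM in Mcidas cells against 690 CPM without Mcidas (KO label) and 118 CPM in Mcidas cells against 539 CPM without Mcidas (WT label). Of the 51 measured axonemal genes 17 were higher and 20 lower in both libraries, against 23.7% higher and 43.5% lower among all measured genes. Summed over the 6 axonemal lists, the 2 sides lay close. The sums were 10192 CPM in Mcidas cells against 11176 CPM without Mcidas (KO label), and 11341 against 12771 CPM (WT label). The markers Tmem212, with a UMI in 2 of 8 Mcidas cells and 27 of 31 without Mcidas (KO label) and in 1 of 4 Mcidas cells and 24 of 27 without Mcidas (WT label), and Ccdc153 were on the lower side. Ccdc153 still had a UMI in 5 of 8 Mcidas cells and 27 of 31 without Mcidas (KO label). In the library labelled WT these were 1 of 4 and 19 of 27. Sntn and Gm19935 had 0 UMIs in the Mcidas cells of both libraries, which allows up to 30.7 (KO label) and 70.7 CPM (WT label), and Sntn had 250 (KO label) and 188 CPM (WT label) in the cells without Mcidas. Foxj1 itself had 471 CPM in Mcidas cells against 348 CPM without Mcidas (KO label) and 613 CPM in Mcidas cells against 468 CPM without Mcidas (WT label), log2 ratios of 0.44 and 0.39 whose intervals both include 0.

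**Figure D4:**
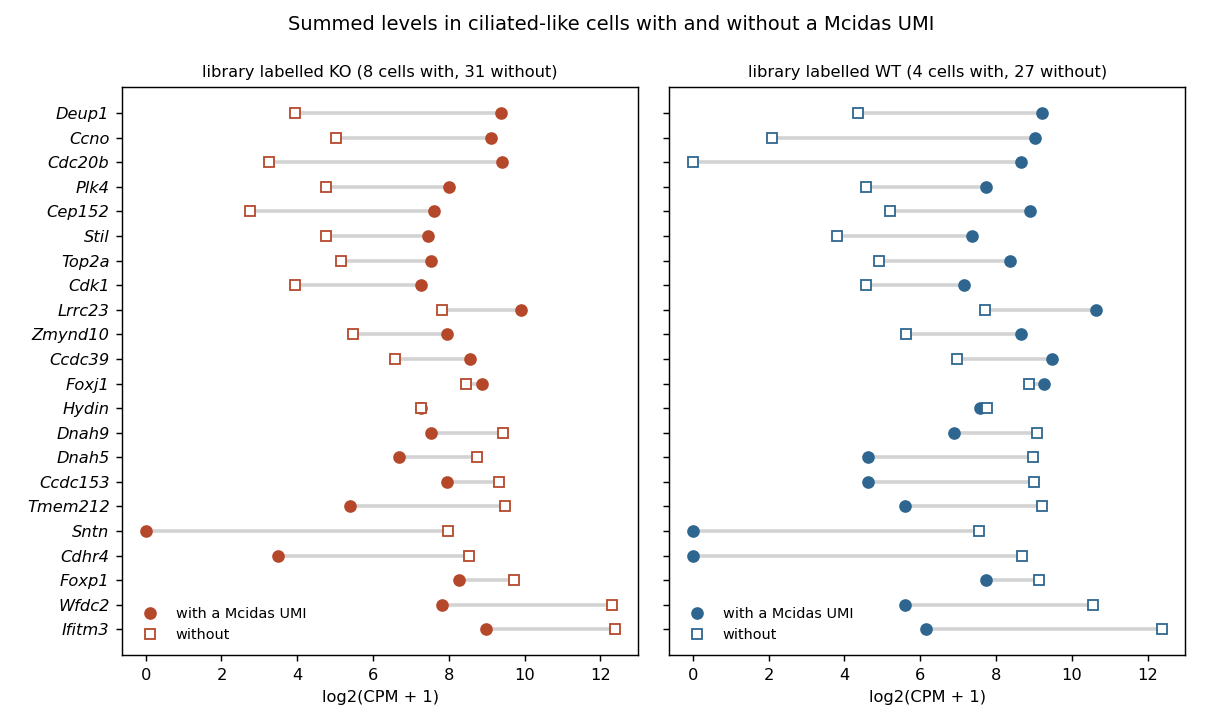
Summed level of 22 genes, as log2 of CPM plus 1, in ciliated-like cells with a Mcidas UMI (filled circles) and without one (open squares), library labelled KO left and library labelled WT right. Centriole genes at the top are higher with Mcidas, and Tmem212, Sntn, Cdhr4, Foxp1, Wfdc2 and Ifitm3 at the bottom are higher without it, in both libraries.

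Foxp1 was lower in the Mcidas cells. It had 307 CPM in Mcidas cells against 839 CPM in the cells without Mcidas in the library labelled KO, a log2 ratio of -1.45 (-2.04 to -0.91), and 212 against 559 CPM in the library labelled WT, a ratio of -1.40 (-2.55 to -0.44). In the cells without Mcidas the library labelled KO was the higher one. In the Mcidas cells the Foxp1 levels came from 30 UMIs in 4 of 8 cells (KO label) and 9 UMIs in 2 of 4 cells (WT label). The order of the libraries within these few cells was not tested. The 15 genes with the most clearly lower ratio in Mcidas cells were Ifi27l2a, Ifitm1, Wfdc2, Ifitm3, Cp, Wfdc18, Car8, Nupr1, Cdhr4, Sncg, Cdc14a, Gm19935, Ppargc1a, Glis3 and A2ml1. The interferon-induced Ifitm3 had 501 CPM in Mcidas cells against 5334 CPM without Mcidas (KO label) and 70.7 CPM in Mcidas cells against 5316 CPM without Mcidas (WT label), and the secreted protease inhibitor family member Wfdc2 had 225 CPM in Mcidas cells against 5104 CPM without Mcidas (KO label) and 47.2 CPM in Mcidas cells against 1516 CPM without Mcidas (WT label). All 8 measured interferon response genes were lower in the Mcidas cells of both libraries, with list sums of 430 CPM in Mcidas cells against 4250 CPM without Mcidas (KO label) and 401 CPM in Mcidas cells against 4611 CPM without Mcidas (WT label), where 43.5% of all measured genes were lower and 6.36% at least 4-fold lower in both. The 15 genes with the most clearly higher ratio were Pth, Npy, Deup1, Ccno, Cep152, Cks2, Mdm1, Rdm1, Csn2, Myef2, Lrrc23, Abhd14a, Smc4, Alms1 and Zmynd10, of which the hormone gene Pth came from 1 Mcidas cell in each library and Npy from 3 (KO label) and 1 (WT label).

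Between the libraries, the axonemal program of the ciliated-like cells was slightly lower in the library labelled KO. Summed axonemal UMIs gave a log2 ratio of -0.20 (-0.26 to -0.14), from 10960 CPM in the library labelled KO and 12598 CPM in the library labelled WT. In the library labelled KO, 21 of the 73 measured axonemal genes were above and 52 below their level in the library labelled WT. Their median was -0.18, where 48.4% of all 7461 measured genes were higher and their median was -0.03. The cells of the libraries overlapped, with axonemal sums of 1194 to 22668 CPM (median 12884) (KO label) and of 1989 to 31140 CPM (median 13952, WT label). The median turned to 0.13 when 2 rule genes were enough for membership and was -0.37 when 4 were needed. It therefore depended on which cells counted as members.

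**Figure D5:**
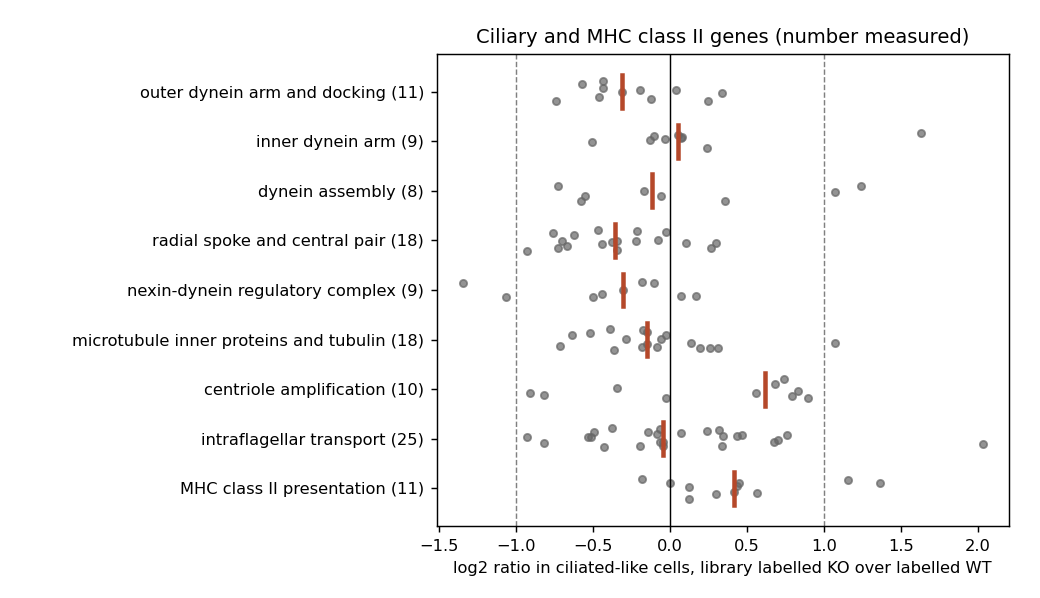
Log2 ratio, KO label over WT label, within ciliated-like cells (horizontal axis) for the measured genes of 9 lists, each point 1 gene and each bar the list's median; dashed lines mark 2-fold. Radial spoke genes lie mostly below 0 and MHC class II genes mostly above it, and most points lie within 2-fold.

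By structure, the radial spoke and central pair genes summed to 2390 CPM in the library labelled KO and 2883 CPM in the library labelled WT, with 15 of 18 genes lower in the library labelled KO. The nexin-dynein genes summed to 646 (KO label) and 842 CPM (WT label). Within them Drc7 had 35.9 (KO label) and 91.3 CPM (WT label) (log2 ratio -1.35, -2.31 to -0.44). Tcte1 had 38.1 (KO label) and 79.9 CPM (WT label) (-1.07, -2.03 to -0.15). Inner arm genes summed to 1541 (KO label) and 1561 CPM (WT label), and one of them, Dnah7a, ran the other way with 123 (KO label) and 39.96 CPM (WT label) (1.63, 0.76 to 2.59) and a UMI in 24 of 39 (KO label) and 10 of 31 (WT label) cells. Dnah7a's near copy Dnah7b had 126 (KO label) and 128 CPM (WT label), and UMIs of such copies can be assigned to the wrong one. Intraflagellar transport summed to 2621 (KO label) and 2634 CPM (WT label). Wdr19, a train component, had 58.3 (KO label) and 14.3 CPM (WT label) (2.03, 0.63 to 3.77). Over all measured genes, 952 (12.8%) differed by at least 2-fold, 483 higher (6.47%) and 469 lower (6.29%), and 6 of the 73 axonemal genes did. The balance moved with the choice of cells, to 314 higher and 459 lower without cells holding 3 or more genes of another mimetic list and to 507 higher and 404 lower without Trp73 in the rule.

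Among the regulators, Rfx3, a factor that binds X-boxes, had 381 CPM in the library labelled KO and 616 CPM in the library labelled WT (-0.69, -0.99 to -0.40), and Agbl4, an enzyme that trims glutamates from tubulin, had 238 (KO label) and 474 CPM (WT label) (-0.99, -1.36 to -0.63). The centriole list ran the other way, with 877 (KO label) and 716 CPM (WT label) (0.29, 0.06 to 0.53). Ccno had 146 (KO label) and 65.6 CPM (WT label) and a UMI in 12 (KO label) and 3 (WT label) cells, and Cdc20b had 155 (KO label) and 48.5 CPM (WT label) in 7 (KO label) and 2 (WT label) cells. In the library labelled WT, 1 cell held 65.2% of the Ccno UMIs and 76.5% of the Cdc20b UMIs. These genes sat mostly in the Mcidas cells, of which there were 8 of 39 (KO label) and 4 of 31 (WT label), a log2 ratio of shares of 0.67 (-1.23 to 2.85). Thinned to 2000 UMIs, Mcidas was found in 3 of 38 (7.89%, KO label) and 3 of 31 (9.68%, WT label) cells. Ccno was found in 2 of 38 (5.26%, KO label) and 2 of 31 (6.45%, WT label). The intervals of the log2 ratios of these shares were -3.19 to 2.61 for Mcidas and -4.08 to 3.49 for Ccno. At equal depth the shares therefore showed no order of the libraries. Within the cells without Mcidas the centriole list stood at 491 (KO label) and 422 CPM (WT label), and within the Mcidas cells at 2251 (KO label) and 2853 CPM (WT label).

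Summed MHC class II genes stood at 10725 (KO label) and 8540 CPM (WT label), with 9 of 11 genes higher in the library labelled KO, where 48.4% of all measured genes were. Single cells did not show this order: they ranged over 0 to 33063 CPM (median 8227, KO label) and 802 to 33940 CPM (median 8282, WT label). In the other kept cells the sums were 17561 (KO label) and 19526 CPM (WT label), with the library labelled KO the lower one. The 20 genes ranked first came mostly from single cells: in 9 of the 10 higher and 10 of the 10 lower ones, 1 cell held at least 50% of the UMIs. Of the 20 genes ranked first by the bound of their interval nearest 0, those higher in the library labelled KO were Ccl22, Exoc3l2, Exd2, Wbp2nl, Scg2, Tmem267, Alpk2, Gemin5, Edn1 and BC037156, and those lower in it included Gm38405, Ghrl, Ccl2, Adarb2, Krt15, Pnmt, Myl7, BC024386 and 1600010M07Rik. Ccl22, a chemokine, had 242 CPM in the library labelled KO, all from 1 cell, and 0 UMIs in the library labelled WT. The stomach hormone gene Ghrl had 2.24 CPM in the library labelled KO and 551 CPM in the library labelled WT, where 1 cell held 99.5% of its UMIs.

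Of 5003 genes with a UMI in at least 13 ciliated-like cells of a library, a limit set after the values were seen, 213 were at least 2-fold higher and 156 at least 2-fold lower in the library labelled KO, and 315 and 146 were so without the top cell of each library. A gene could pass this limit through either library, and 13 cells are a smaller part of 39 than of 31. Genes high in the library labelled KO therefore passed more easily, and these counts cannot show a balance. Over all measured genes, 483 were at least 2-fold higher and 469 at least 2-fold lower. The genes that follow are among the 10 ranked first in each direction without the top cell of each library. Wfdc2 had 4034 CPM in 32 of 39 cells in the library labelled KO and 1339 CPM in 25 of 31 cells in the library labelled WT. The log2 ratio was 1.59 (1.44 to 1.74), and 1.70 without the top cell of each library. In the other kept cells it had 485 (KO label) and 270 CPM (WT label). S100a6, a calcium-binding protein, had 3195 (KO label) and 1379 CPM (WT label) (1.21), and the kinase Cdkl1 had 112 (KO label) and 17.1 CPM (WT label) (2.71, 1.49 to 4.22) in 19 (KO label) and 6 (WT label) cells. Csf1r, the receptor that marks myeloid cells, had 62.8 CPM in 13 cells (KO label) and 2.85 CPM in 1 cell (WT label). The whole list of 6 myeloid genes summed to 227 (KO label) and 94.2 CPM (WT label). In either library 0 ciliated-like cells held 3 or more of them, against 1.78% (KO label) and 2.05% (WT label) of the other kept cells. The part of myeloid genes in the other differences was not tested. On the lower side, the small heat shock protein Hspb1 had 379 (KO label) and 1216 CPM (WT label) (-1.68, -1.95 to -1.42), and Krt14, a basal keratin, had 56.1 (KO label) and 285 CPM (WT label) (-2.35). Immediate early and heat shock genes also respond to tissue digestion, and 10 of the 13 on that list had less in the library labelled KO (median log2 ratio -0.32). Of all measured genes, 48.4% had more in that library. Handling, depth and animal could not be told apart from the genotype label with 1 library each.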

How the data were processed

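Single-cell RNA libraries of sorted EPCAM+ thymic cells were available, 1 per group. The deposited values are raw UMI counts per gene and barcode, which the authors made, per the file headers, in Cell Ranger 7.0.1. Seurat and the mm10 build are also named in the submitters' processing notes. The libraries held 4277 barcodes and 25233944 UMIs (labelled KO) and 4957 barcodes and 33120715 UMIs (labelled WT). Cells were filtered and the rule applied as described above. UMIs were summed over cells per library and scaled to CPM. Ratios were formed for genes with at least 20 UMIs, with exact conditional binomial intervals, exact Clopper-Pearson intervals for shares, and a floor of 3 counts for a count of 0. Named genes were the list members, the 25 leading genes, and 10 in each direction between libraries, of which 1 is not reported here. Scrublet, through scanpy 1.11.5, called 0 cells and was taken not to have worked, so no doublets were removed. The ratio step was tested on simulated data. Gene positions came from GENCODE M21 and promoters from RefSeq. Of 56 genes named by rank or rule, 7 overlap another gene on the same strand. Python 3.11.15, scipy 1.17.1 and numpy 2.4.6 were used. Members and lists were chosen with earlier results of these data known. Alternatives covered the rule, filters, depth, scaling with edgeR 4.0.16 TMM factors and weighting of cells.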

Additional observations from a re-analysis of the deposited data

Results flagged for a closer look

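Some cells outside the definition also carried ciliated genes. Cells with 3 or more rule genes and also 3 or more Aire UMIs numbered 11 among kept cells with the KO label and 6 among those with the WT label. Their median number of axonemal genes was 22 (KO label) and 24 (WT label) at median depths of 20345 (KO label) and 29015 (WT label) UMIs, and 5 (KO label) and 4 (WT label) after thinning to 2000 UMIs. Of the barcodes removed by the filter on cells, 3 with the KO label and 2 with the WT label had 3 or more rule genes, with medians of 24 (KO label) and 8.5 (WT label) axonemal genes. The part of doublets in these cells was not tested.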

How the results depend on the processing

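The median log2 ratio of axonemal genes with KO label over WT label, -0.18, turned to 0.13 with 2 or more rule genes, and was -0.37 with 4 or more and -0.31 without Trp73 in the rule. The Foxp1 log2 ratio, 0.48, was 0.91 with 2 or more rule genes and 0.76 with equal weight per cell, and stayed above 0 in the 11 settings run. The count of genes past 2-fold between the libraries, 952, was 7470 with genes of 1 or more UMIs and 292 with genes of 50 or more, where the gene filter itself changes how many genes are counted. The log2 ratio of shares ranged over 0.26 to 0.69 in 11 settings and the count of genes past 4-fold over 510 to 810 in 7. The Fezf2 log2 ratio ranged over 0.13 to 0.74 in 11. Leaving out the top cell of each library, and leaving out cells with 3 or more genes of another mimetic list, were chosen after seeing the data. No paired analysis was possible because each group had 1 library. The numbers of cells, 39 and 31, and of Mcidas cells, 8 and 4, limit every comparison, and the intervals leave out the spread between animals.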
